A study of Drosophila melanogaster with 9 samples.

Results

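Aminoacyl-tRNA synthetase genes made up 30 of the 10843 genes that had a probe set of their own on an Affymetrix fly array hybridised with larval midgut RNA. They were chosen by symbol, as genes named with a 3-letter amino acid code (or several) followed by RS. The suffix -m marks the enzymes of mitochondria, and it split the members into 16 cytosolic and 14 mitochondrial genes. All 16 cytosolic genes and 12 of the 14 mitochondrial genes were bright enough to be tested. For LeuRS, SerRS, TyrRS and MetRS-m, which had 2 probe sets each, the brighter over all 9 arrays stood for the gene. Brightness was the measured value that this rule used. AlaRS-m, AspRS and MetRS also fit the naming rule and were not analysed here.

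Aminoacyl-tRNA synthetases join each amino acid to its own transfer RNA and so supply the ribosome with charged tRNAs. The enzymes fall into class I and class II, which have unrelated catalytic folds. Mitochondria translate their own genome with a separate set of synthetases, which are encoded in the nucleus and imported. In mammals several cytosolic synthetases sit in a multisynthetase complex held together by the AIMP scaffold proteins, and many synthetase genes are targets of ATF4, the transcription factor of the amino acid response (crc in Drosophila). The larval midgut secretes digestive enzymes in quantity, and protein synthesis there depends on charged tRNA.

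The midguts came from third-instar larvae of the Drosophila melanogaster strain W1118 in 3 groups of 3 arrays. WGA larvae, labelled 108 h old (108 to 110 h for replicate 1), then ate for 12 h a diet with 1% wheat germ agglutinin, a wheat lectin that binds N-acetylglucosamine and chitin. Starved larvae, labelled 108 h old, then spent 12 h without food. Control larvae were labelled normal, 12 hours, with an age of 120 h. Each array held 1 pool of 50 midguts, described as a biological replicate, so the errors describe the spread between pools. If the 108 h are the age at the start of treatment, the groups had the same age at dissection, but the labels do not say so.

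The summed signal of an array lay between 909028 and 1457246. Across tested probe sets, arrays of the same group correlated at Pearson r of 0.907 to 0.950, and arrays of different groups at 0.843 to 0.905. The eIF-4a 3 prime to 5 prime ratio, which reads RNA integrity, was 2.75 to 3.52 on WGA arrays, 2.83 to 3.56 on starvation arrays and 3.60 to 5.71 on control arrays. That ratio separated the controls from both treatments, while the GAPDH ratio did not separate WGA from control (2.22 to 2.41 on WGA arrays, 2.92 to 3.35 on starvation arrays and 1.97 to 2.92 on control arrays). The ACTIN ratio overlapped control in both treatments, with 1.17 to 1.49 on WGA arrays, 1.44 to 1.51 on starvation arrays and 1.44 to 2.36 on control arrays. Enterocyte and midgut markers had a summed normalised signal over 6 genes of 2386 to 2692 on WGA arrays, 3277 to 4429 on starvation arrays and 6006 to 6655 on control arrays. Of these 6, betaTry was dim, with log2 means of 2.25, 2.68 and 3.31 after WGA, after starvation and in control. In WGA against control 2 rose (Npc2f and Mal-A1) and 3 fell (Jon25Bi, Jon99Ci and LManVI). In starvation against control 2 rose (Npc2f and Mal-A1) and 2 fell (Jon99Ci and LManVI). Visceral muscle markers, with 5 genes measured, summed to 2434 to 4150 on WGA arrays, 1516 to 2084 on starvation arrays and 2237 to 2748 on control arrays. Their single call in each comparison was Act87E, whose probe set carries a mark for sequence shared between genes. On the log2 scale it changed by 0.78 in WGA against control, -0.52 in starvation against control and 1.3 in WGA against starvation. Enteroendocrine markers, with 7 genes, summed to 120 to 132 on WGA arrays, 158 to 176 on starvation arrays and 186 to 232 on control arrays, with 2 falls in WGA against control. Fat body markers, with 5 genes, summed to 198 to 336, 193 to 922 and 230 to 290 on WGA, starvation and control arrays, and Lsp2 rose in starvation against control. No marker of progenitors (1 gene tested), salivary gland (1 tested), haemocytes (3 tested), Malpighian tubule (2 tested) or trachea (2 tested) passed the test in any comparison. The mean of 5 of 6 salivary gland markers and 4 of 5 haemocyte markers lay below the brightness filter in all groups. The part of RNA integrity and of these markers in the results below was not tested, and in bulk tissue fewer cells of a type and less RNA per cell cannot be told apart.

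The first comparison asked how transcript levels differ once larvae have eaten the lectin. Of the 16 cytosolic synthetases 8 rose, 0 fell and 8 did not pass the test, where 11.6% of all 9675 tested probe sets rose and 10.1% fell. The 8 were AsnRS, GluProRS, IleRS, ThrRS, LeuRS, SerRS, TyrRS and GlyRS. Their changes ran from 0.81 for GlyRS to 1.58 for AsnRS on the log2 scale, or 1.75-fold to 2.995-fold. All values below are quantile-normalised log2 signals or differences of them. A change was called where the adjusted p of limma, a linear model fitted to all tested probe sets, was under 0.05. The median change of the 16 genes was 0.97, against 0.03 over all tested probe sets.

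AsnRS, the asparagine enzyme of class II, had the largest called change. Its log2 signal was 8.19, 8.03 and 7.65 on the WGA arrays, 6.70, 6.69 and 6.18 on the starvation arrays and 6.65, 6.25 and 6.22 on the control arrays. The WGA arrays all lay above the others, while starvation and control overlapped. Before normalisation these were deposited signals of 400, 282 and 232 after WGA, 86.9, 74.6 and 76.5 after starvation and 79.0, 82.1 and 54.7 in control. The change in WGA against control was 1.58 ± 0.21 (SE, n = 3 per group, limma adjusted p = 7.96e-05).

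GluProRS encodes 1 protein with both glutamyl and prolyl activity, so it charges a pair of tRNA families. Its log2 signal was 5.88, 5.91 and 5.49 after WGA, 5.38, 5.02 and 4.85 after starvation and 4.47, 4.70 and 3.69 in control. No arrays of different groups overlapped, with WGA highest and control lowest. The gene rose by 1.47 ± 0.28 in WGA against control (limma adjusted p = 0.00192).

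IleRS, the class I isoleucine enzyme, showed the same order of group means. Its log2 signal was 5.36, 5.15 and 4.81 after WGA, 4.87, 4.53 and 3.83 after starvation and 3.50, 3.96 and 3.53 in control. WGA and control did not overlap, whereas the starvation arrays reached into both ranges. The change in WGA against control was 1.44 ± 0.31 (limma adjusted p = 0.00423).

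ThrRS, the threonine enzyme of class II, was the most even member after WGA. Its log2 signal was 7.30, 7.33 and 7.31 after WGA, 6.16, 5.75 and 5.82 after starvation and 6.24, 6.13 and 5.57 in control. The WGA arrays differed by less than 0.05 from each other and stood above every other array. The change in WGA against control was 1.33 ± 0.20 (limma adjusted p = 0.000303).

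LeuRS, the class I leucine enzyme, had 5.21, 5.26 and 5.05 after WGA, 3.97, 3.96 and 2.94 after starvation and 3.76, 4.22 and 4.03 in control. WGA again stood apart, and starvation and control overlapped. The change in WGA against control was 1.17 ± 0.32 (limma adjusted p = 0.0169). The other LeuRS probe set gave 1.28 ± 0.49 but did not pass (limma adjusted p = 0.0807). Both LeuRS probe sets carry a suffix that marks a limit of probe choice. The dimmer one is of the kind able to bind several transcripts.

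SerRS, TyrRS and GlyRS completed the rises, for the serine, tyrosine and glycine enzymes. SerRS had 7.73, 7.40 and 7.04 after WGA, 7.25, 6.74 and 6.12 after starvation and 6.73, 6.35 and 5.90 in control, so WGA and control did not overlap while starvation reached into both. GlyRS had 7.0, 7.01 and 6.65 after WGA, 6.67, 6.03 and 5.73 after starvation and 6.04, 6.33 and 5.88 in control, with the same pattern. SerRS rose by 1.07 ± 0.29 (limma adjusted p = 0.0169), TyrRS by 0.96 ± 0.19 (limma adjusted p = 0.00238) and GlyRS by 0.81 ± 0.24 (limma adjusted p = 0.0269). GlyRS is one of the synthetases that in animals serves both cytosol and mitochondria from a single gene, as does LysRS. Threonine, histidine and glutamine also had no -m gene that fit the naming rule, so the cytosolic label of ThrRS, HisRS and GlnRS rests on the symbol alone. The dimmer probe sets of SerRS and TyrRS gave 0.04 ± 0.53 and -0.19 ± 0.63, and neither passed. With the median over each gene's probe sets, these 2 calls were lost, at adjusted p = 0.495 and 0.436. Their mean log2 signals over the 9 arrays, 2.39 and 2.98, were close to the brightness filter of 2.79.

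**Figure D1:**
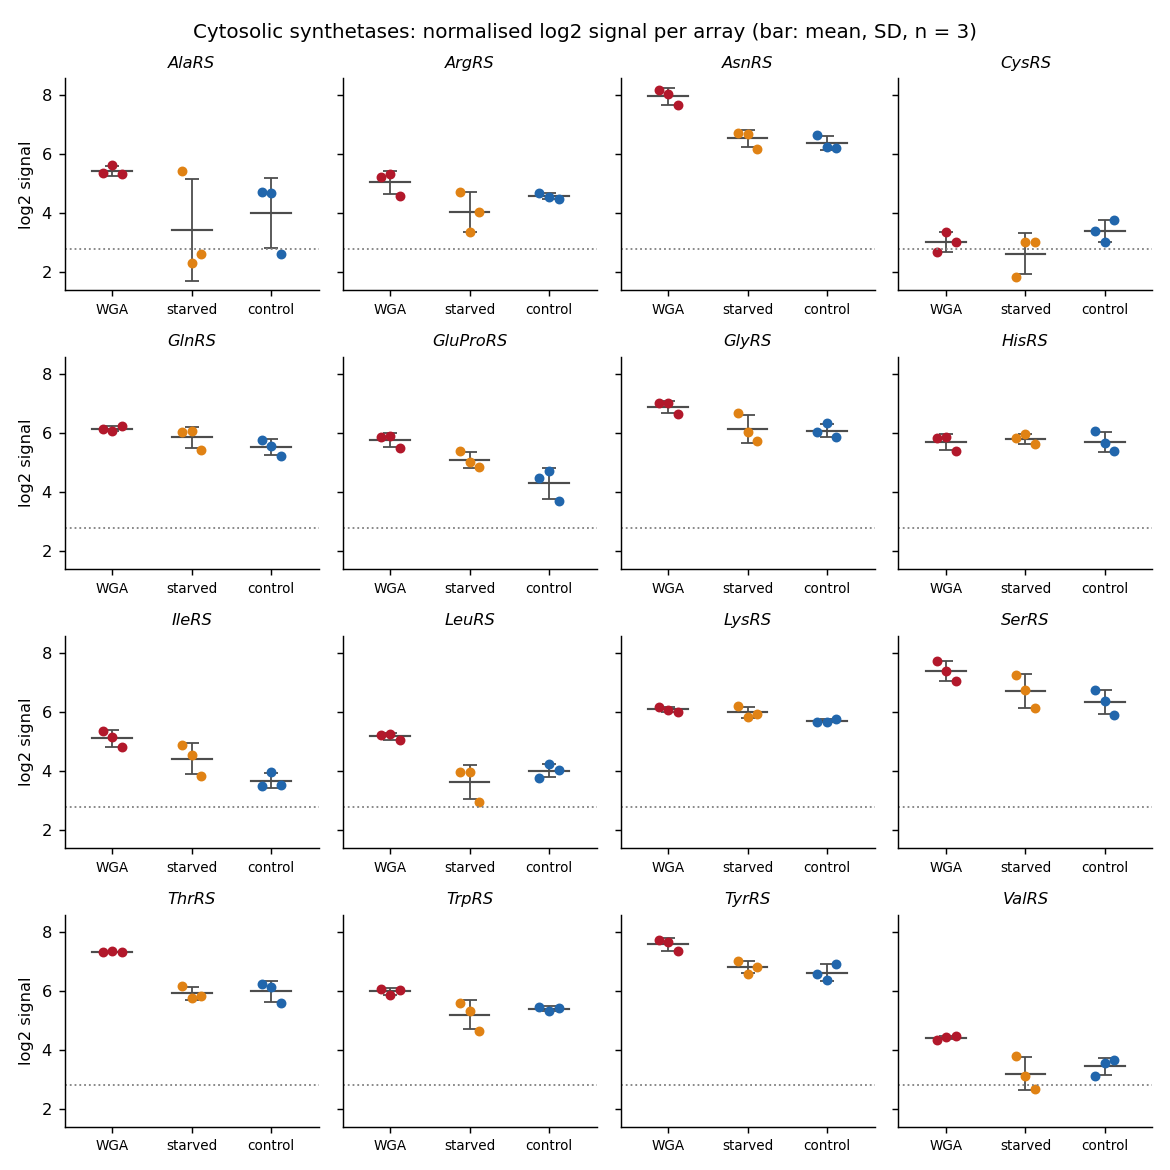
Normalised log2 signal of the 16 cytosolic synthetases on each array, with WGA, starvation and control from left to right, the group mean and SD (n = 3) as bars and the brightness filter of 2.79 as a dotted line. In 13 of the 16 genes all WGA arrays lie above all control arrays, while HisRS, ArgRS and CysRS overlap.

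The remaining 8 cytosolic genes did not pass the test in WGA against control. WGA and control arrays nevertheless did not overlap for 13 of the 16 genes, WGA being higher in each, where 20.5% of all tested probe sets had WGA wholly above control and 38.3% had no overlap in either direction. AlaRS, GlnRS, LysRS, TrpRS and ValRS were the 5 genes of this kind without a call, with limma adjusted p from 0.0606 for GlnRS to 0.183 for AlaRS. ValRS had 4.34, 4.43 and 4.47 after WGA against 3.09, 3.55 and 3.65 in control, a difference of 0.98 ± 0.35 (limma adjusted p = 0.0627).

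AlaRS, the alanine enzyme, had a change of 1.43 ± 0.71, as large as some of the called ones. Its log2 signal was 5.35, 5.62 and 5.32 after WGA, 5.43, 2.30 and 2.60 after starvation and 4.71, 4.68 and 2.61 in control. The WGA arrays lay close together, but 1 control array and 2 starvation arrays were below the filter level, and the standard error was the largest of the cytosolic genes. The limma adjusted p was 0.183.

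HisRS, ArgRS and CysRS were the genes whose WGA and control arrays overlapped. HisRS, the histidine enzyme, had 5.83, 5.85 and 5.39 after WGA, 5.82, 5.96 and 5.62 after starvation and 6.05, 5.67 and 5.38 in control. Its difference in WGA against control was -0.01, with a 95% interval of -0.50 to 0.48, so its interval excluded the median change of the cytosolic genes. ArgRS differed by 0.47 ± 0.34 and CysRS by -0.37 ± 0.45, neither past the test. CysRS was measured by a probe set of the kind marked as able to bind several transcripts, and its mean signal was near the filter.

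Rises were spread over both structural classes. Of the cytosolic class I enzymes 3 of 8 rose (IleRS, LeuRS and TyrRS) with a median change of 0.80, and of the class II enzymes 4 of 7 rose (AsnRS, GlyRS, SerRS and ThrRS) with a median of 1.07. GluProRS, which joins an enzyme of each class, was counted in neither. Of the genes whose mammalian counterparts sit in the multisynthetase complex, 3 of 6 rose, with a median of 0.90. Of those that are free in mammals 5 of 10 rose, with a median of 0.97. These splits rest on textbook knowledge of the enzymes, and no test of a difference between them was run.

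The size of the changes varied with the processing. The cytosolic median in WGA against control, 0.97 in the main fit, was 1.46 as deposited and 1.51 with spike-in scaling. It was 0.71 when 16 instead of 1.72 was added to each signal before the logarithm. With that offset IleRS changed by 0.86, GluProRS by 1.01 and LeuRS by 0.73, and these genes stayed called. The median over each gene's probe sets gave 0.72. The cytosolic median exceeded that of all tested probe sets by 0.94 with quantile normalisation and by 0.97 to 0.98 under the other 4 scalings tried (as deposited, median-centred, cyclic loess and spike-in). With the deposited scaling, which moved all tested probe sets by 0.48, 14 of 16 genes rose where 21.7% of probe sets rose. There the rises made up 82.2% of all calls, against 53.6% with quantile normalisation. AsnRS, GluProRS, IleRS, ThrRS and TyrRS also passed without WGA replicate 1 and without WGA replicate 2, which left 5 rises each. Of all tested probe sets 8.51% and 7.9% rose there. GlyRS, LeuRS and SerRS lost the call in both cases, at adjusted p from 0.053 to 0.0996. Among control arrays, replicate 1 decided GlyRS and LeuRS (adjusted p = 0.0669 and 0.0517 without it) and replicate 3 decided GlyRS and SerRS (adjusted p = 0.0834 and 0.0712 without it).

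None of the 12 tested mitochondrial synthetases rose or fell in WGA against control by limma's adjusted p, and 1 had an unadjusted p under 0.05. Of all tested probe sets 11.6% rose and 10.1% fell, or 21.7% in either direction. With 12 genes, 0 calls cannot be told apart from that share. Their median change was 0.06, between -0.52 for IleRS-m and 0.66 for AsnRS-m. Of the tested synthetases, 0 had passed the brightness filter through the arrays of a single group only. No tested mitochondrial gene had its WGA arrays wholly above the control arrays, and 1, PheRS-m, had them wholly below, where 17.8% of all tested probe sets did. These genes were measured less precisely: the median standard error was 0.48 for mitochondrial genes, 0.26 for cytosolic genes and 0.36 for all tested probe sets. In all, 3 of 14 mitochondrial genes lay above the filter on all 9 arrays, compared with 13 of 16 cytosolic genes. The 95% intervals of 7 mitochondrial genes still held the cytosolic median change of 0.97, and those of 5 lay wholly below it, namely AspRS-m, IleRS-m, MetRS-m, PheRS-m and SerRS-m.

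The 3 mitochondrial genes above the filter throughout gave the clearest values. AspRS-m, for aspartate, had 5.16, 4.60 and 4.51 after WGA, 4.96, 4.40 and 4.21 after starvation and 4.10, 5.02 and 4.32 in control. SerRS-m, for serine, had 4.60, 4.69 and 4.67 after WGA, 4.92, 4.81 and 4.43 after starvation and 4.61, 4.58 and 3.83 in control. All 3 groups overlapped in both genes. PheRS-m, the single-chain phenylalanine enzyme of mitochondria, behaved otherwise and is described with starvation.

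**Figure D2:**
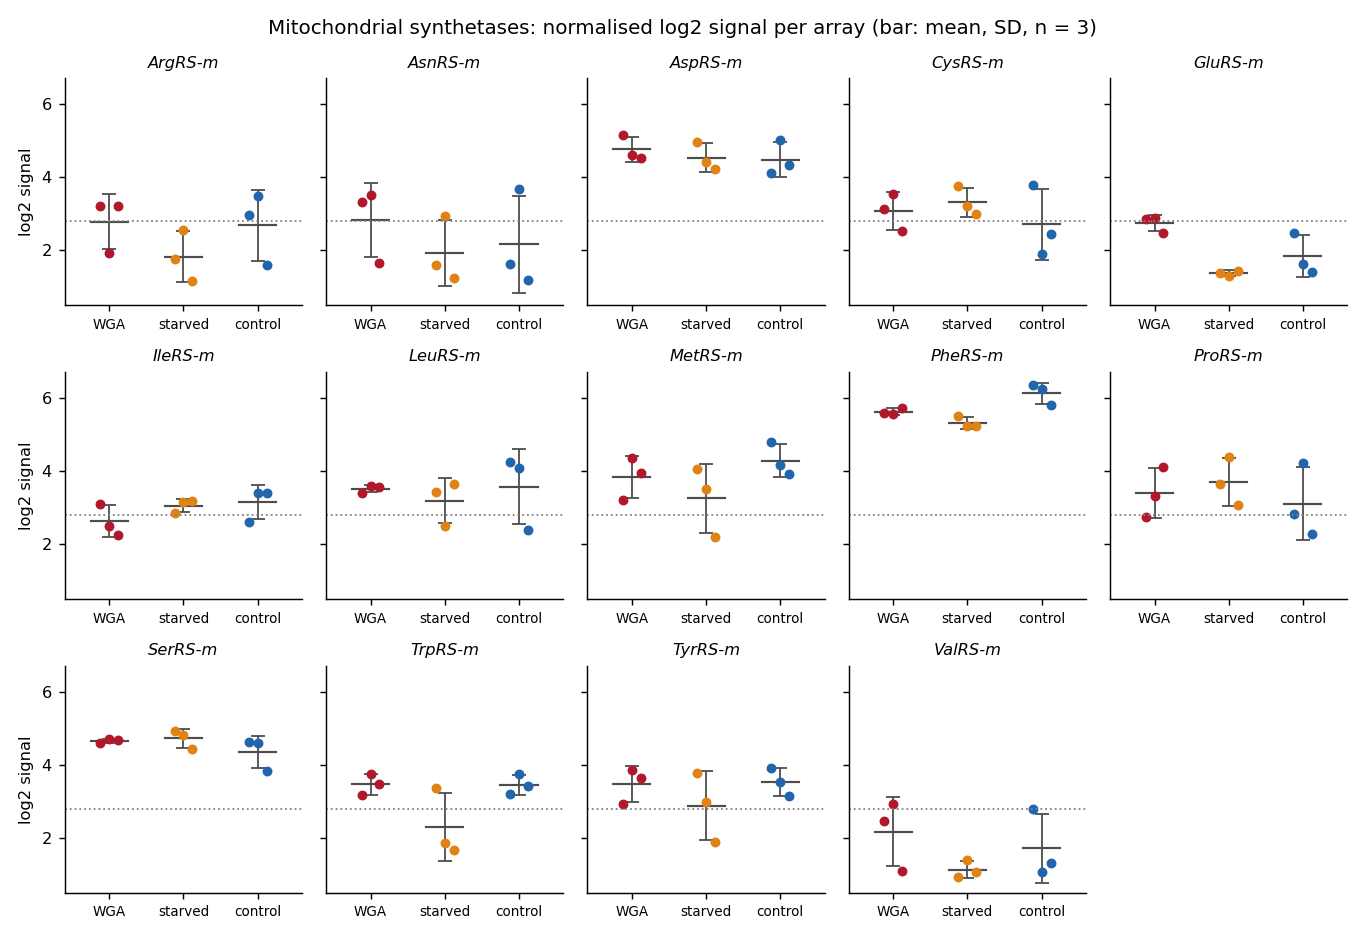
Normalised log2 signal of the 14 mitochondrial synthetases on each array, drawn as for the cytosolic genes, with the brightness filter of 2.79 dotted. Most genes scatter around the filter, AspRS-m, SerRS-m and PheRS-m lie above it throughout, and PheRS-m is lower on all WGA and starvation arrays than on all control arrays.

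GluRS-m and ValRS-m reached the filter on 2 of 9 arrays and were not tested. GluRS-m lies next to TyrRS in the genome, with no gene between them in the reference table. It passed the filter level on 2 WGA arrays and on none of the others. It had 2.84, 2.87 and 2.48 after WGA, 1.38, 1.28 and 1.43 after starvation and 2.47, 1.63 and 1.39 in control. The WGA values lay above all others, the lowest by 0.01 above the highest control array. All its starvation and control values lay below the filter level, so no fold change is given.

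The comparison of starved with control larvae asked what 12 h without food changes. No cytosolic synthetase passed the test, with 0 of 16 rising or falling by limma's adjusted p and 2 having an unadjusted p under 0.05, where 8.12% of all tested probe sets rose and 7.09% fell. The median change of the 16 genes was 0.08, from -0.76 for CysRS to 0.79 for GluProRS, and the median over all tested probe sets was 0.01. GluProRS had starvation arrays wholly above the control arrays, with a difference of 0.79 ± 0.28 (limma adjusted p = 0.0819), and so had LysRS with 0.30 ± 0.18 (limma adjusted p = 0.319). These 2 of 16 compare with 15.2% of all tested probe sets wholly higher and 29.4% without overlap in either direction. IleRS differed by 0.75 ± 0.31 (limma adjusted p = 0.136). With spike-in scaling, which moved all tested probe sets by 0.53, GlnRS, GluProRS and IleRS rose. These 3 of 16 are near the 16.5% of all tested probe sets that rose there. Of all calls, 86.1% were rises with that scaling, against 53.4% with quantile normalisation and 41.5% with median centring. IleRS also rose without starvation replicate 3.

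PheRS-m was the 1 synthetase that fell under starvation, and 1 of 12 mitochondrial genes is near the 7.09% of all tested probe sets that fell. Its log2 signal was 5.59, 5.55 and 5.72 after WGA, 5.49, 5.22 and 5.22 after starvation and 6.34, 6.25 and 5.80 in control. Both treatments lay wholly below control, starvation lowest. The change in starvation against control was -0.82 ± 0.20 (limma adjusted p = 0.0154), and in WGA against control -0.51 ± 0.20 (limma adjusted p = 0.0990). Deposited signals were 37.8, 27.5 and 39.4 after starvation against 61.6, 81.9 and 40.03 in control, where 1 control array was close to the starvation arrays. With the deposited scaling the change was -0.74 and did not pass (adjusted p = 0.158), while it was -0.89 with median centring and -0.82 with cyclic loess and passed the test. Spike-in scaling gave -0.29 (adjusted p = 0.51). Changes of -0.71 to -0.78 without a call were found without control replicate 1, control replicate 2 or starvation replicate 2 (adjusted p from 0.0556 to 0.0619).

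The other 11 tested mitochondrial genes did not pass in starvation against control. The median over the 12 genes was -0.31, against 0.01 over all tested probe sets, but it was 0.11 with spike-in scaling and 0.05 with a filter at the 60th percentile, which kept 5 of the genes. It was -0.04 without control replicate 2 and -0.79 without control replicate 3. TrpRS-m, for tryptophan, had 3.36, 1.84 and 1.67 after starvation against 3.19, 3.74 and 3.42 in control, a difference of -1.16 ± 0.47 (limma adjusted p = 0.128). MetRS-m, for methionine, differed by -1.03 ± 0.47 (limma adjusted p = 0.175). In TrpRS-m 1 starvation array lay within the control range and the other 2 below the filter.

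**Figure D3:**
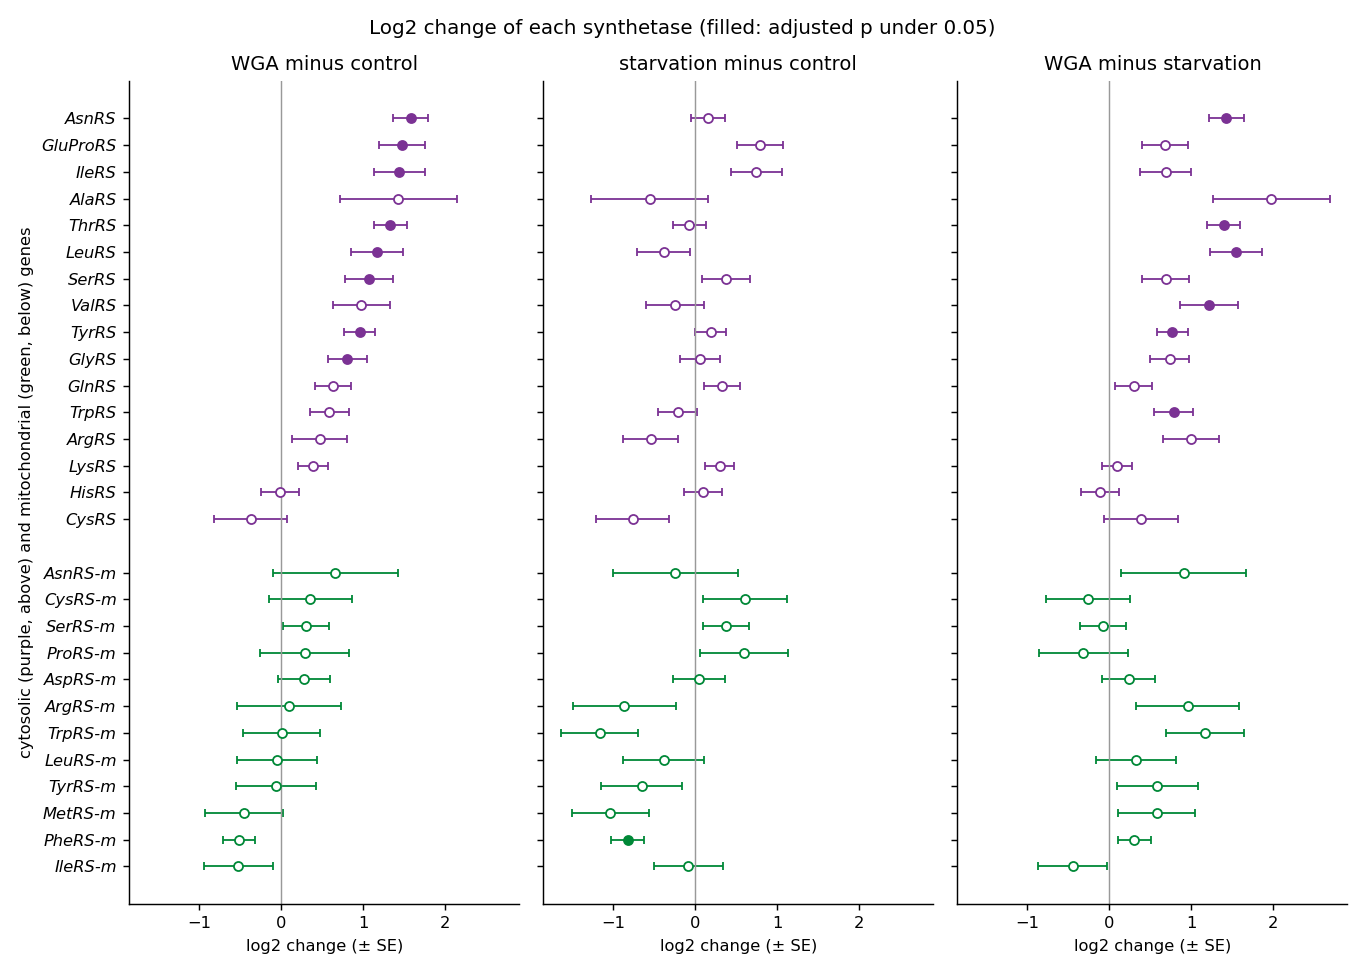
Log2 change ± SE of each tested synthetase in each of the 3 comparisons, with cytosolic genes above mitochondrial genes, and filled points where the limma adjusted p was under 0.05. Called cytosolic genes lie right of 0 in both comparisons that involve WGA, and the single filled point in starvation minus control is PheRS-m at -0.82.

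WGA was set against starvation directly, which tests whether the treatments differ. Of the cytosolic synthetases 6 of 16 rose and 0 fell, where 5.94% of all tested probe sets rose and 5.57% fell. The 6 were LeuRS, AsnRS, ThrRS, ValRS, TrpRS and TyrRS, and the median over the 16 genes was 0.76, against 0.01 over all tested probe sets. This comparison uses the same WGA arrays as WGA against control, so the pair of results is not independent. LeuRS changed most, by 1.55 ± 0.32 (limma adjusted p = 0.00497), followed by AsnRS with 1.43 ± 0.21 (limma adjusted p = 0.000371) and ThrRS with 1.40 ± 0.20 (limma adjusted p = 0.000384), whose values on each array are given above. These 3 also passed without each array in turn. The dimmer LeuRS probe set gave 1.58 ± 0.49 without a call (limma adjusted p = 0.0532).

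ValRS, the valine enzyme, had 4.34, 4.43 and 4.47 after WGA against 3.79, 3.09 and 2.68 after starvation, a change of 1.22 ± 0.35 (limma adjusted p = 0.0381). TrpRS, the tryptophan enzyme, had 6.06, 5.86 and 6.02 after WGA against 5.58, 5.32 and 4.64 after starvation, a change of 0.79 ± 0.24 (limma adjusted p = 0.0486). In both genes the WGA arrays stood wholly above the starvation arrays. TyrRS, with 7.72, 7.66 and 7.33 after WGA against 7.01, 6.58 and 6.81 after starvation (6.55, 6.36 and 6.91 in control), rose by 0.77 ± 0.19 (limma adjusted p = 0.0176). The dimmer TyrRS probe set gave 0.13 ± 0.63 in WGA against starvation and did not pass (limma adjusted p = 0.944). With the median over each gene's probe sets the TyrRS call was lost (limma adjusted p = 0.481). ValRS, TrpRS and TyrRS lost the call without WGA replicate 1, without WGA replicate 2 and without starvation replicate 2, which left 3 rises each. Of all tested probe sets 4.34%, 3.88% and 4.29% rose there. TrpRS, closest to the threshold, lost it under 13 of the 21 alternatives. With the deposited scaling, which moved all tested probe sets by 0.35, 12 cytosolic genes rose, where 10.3% of all tested probe sets rose. Rises made up 84.9% of all calls there, against 51.6% with quantile normalisation and 62.6% with median centring.

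GluProRS and IleRS, which lay between the other groups after starvation, differed by 0.68 ± 0.28 and 0.69 ± 0.31 in WGA against starvation (limma adjusted p = 0.170 and 0.206). SerRS and GlyRS, called against control, differed by 0.69 ± 0.29 and 0.74 ± 0.24 (limma adjusted p = 0.167 and 0.0628). AlaRS had the largest difference of all, 1.98 ± 0.71, without a call (limma adjusted p = 0.102), since starvation replicate 1 was as high as the WGA arrays. WGA lay wholly above starvation for 7 of 16 cytosolic genes, where 15.7% of all tested probe sets did so and 30.0% had no overlap in either direction. No mitochondrial gene passed in this comparison, 1 had an unadjusted p under 0.05, and their median was 0.32. Of all tested probe sets 5.94% rose and 5.57% fell, or 11.5% in either direction. With 12 genes, 0 calls cannot be told apart from that share. The median was 0.73 with the deposited scaling, where that of all tested probe sets was 0.35, 0.22 without starvation replicate 2 and 0.09 without starvation replicate 3.

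**Figure D4:**
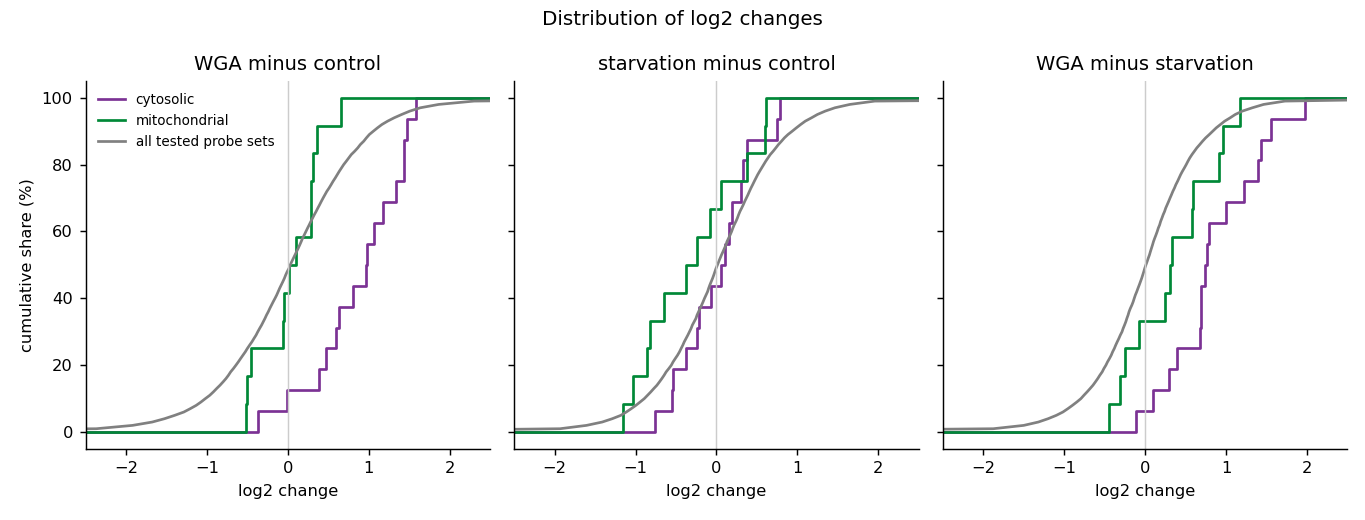
Cumulative share of log2 changes for the 16 cytosolic genes, the 12 tested mitochondrial genes and all 9675 tested probe sets in each comparison. The cytosolic curve lies to the right of the others over most of its length in both comparisons with WGA (medians 0.97 and 0.76). It ends at 1.58 and 1.98 there, while the curve of all probe sets runs on beyond these values. In starvation minus control the cytosolic curve lies near that of all probe sets (median 0.08).

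Cytosolic and mitochondrial enzymes of the same amino acid were compared within arrays for the 9 pairs in which both genes were tested, as the difference of their log2 signals. The cytosolic gene changed more than its mitochondrial partner in 8 of 9 pairs in WGA against control, with a median difference of 0.92. The exception was CysRS, at -0.73. IleRS-m itself had 3.10, 2.5 and 2.25 after WGA, 2.85, 3.15 and 3.16 after starvation and 2.61, 3.40 and 3.40 in control, with overlap between WGA and control. The largest difference was that of IleRS over IleRS-m, which was 2.25, 2.65 and 2.56 on WGA arrays, 2.02, 1.38 and 0.67 on starvation arrays and 0.89, 0.56 and 0.13 on control arrays. It was wholly higher after WGA than in control, by 1.96, and than after starvation, by 1.13. SerRS over SerRS-m was the other pair without overlap between WGA and control, with 3.14, 2.71 and 2.37 on WGA arrays, 2.33, 1.93 and 1.69 on starvation arrays and 2.13, 1.76 and 2.06 on control arrays. An exact two-sided permutation test of 3 against 3 arrays cannot go below p = 0.1, which both pairs reached (adjusted p = 0.36 over the 9 pairs). The test could therefore call no pair, whatever its difference. The 2 of 9 pairs wholly higher after WGA are near the 20.5% of all tested probe sets wholly higher. Of all tested probe sets, 38.3% had no overlap in either direction. Those shares are of single probe sets, not of pair differences. The SerRS pair rests on the brighter SerRS probe set, as the dimmer one changed by 0.04 ± 0.53.

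In starvation against control 6 of 9 pairs had a positive difference, with a median of 0.32, and none was without overlap (lowest exact permutation p = 0.2). In WGA against starvation 8 of 9 pairs were positive, with a median of 0.64. IleRS, LeuRS and SerRS were the cytosolic genes whose difference from the mitochondrial partner did not overlap there (exact permutation p = 0.1, adjusted p = 0.3). These 3 of 9 pairs compare with 15.7% of all tested probe sets wholly higher and 30.0% without overlap in either direction.

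Array means summarised the cytosolic genes on each array. Averaged over the 16 genes, the deviation from each gene's own 9-array mean was 0.65, 0.66 and 0.41 on WGA arrays, 0.10, -0.34 and -0.60 on starvation arrays and -0.19, -0.22 and -0.49 on control arrays. On the WGA arrays 15, 16 and 14 of the 16 genes were above their own mean, against 12, 4 and 2 on starvation arrays and 4, 2 and 1 on control arrays. Starvation replicate 1 thus stood apart from the other starvation arrays. The mitochondrial genes averaged 0.09, 0.22 and 0.06 on WGA arrays, 0.09, -0.09 and -0.64 on starvation arrays and 0.21, 0.46 and -0.40 on control arrays, so the groups overlapped. In each group replicate 3 was the lowest array in both sets of genes.

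**Figure D5:**
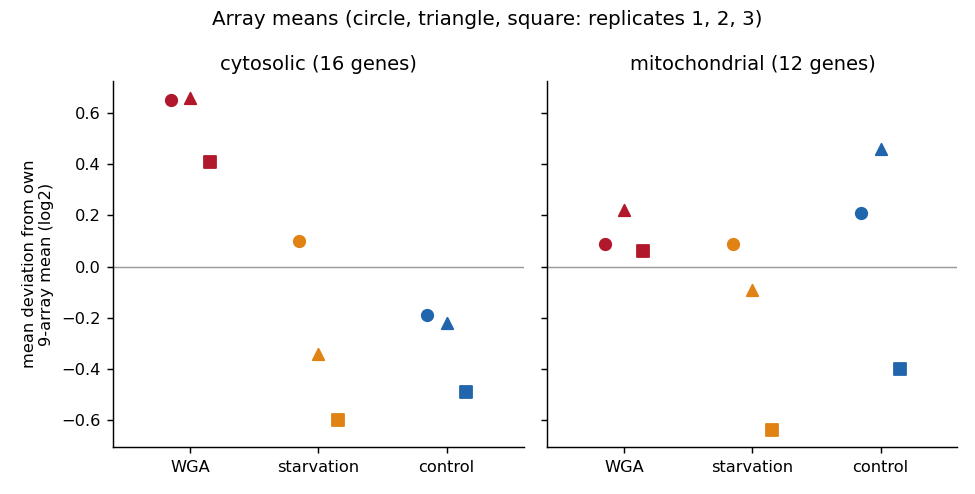
Mean deviation of the cytosolic (left) and tested mitochondrial (right) synthetases from each gene's own mean over the 9 arrays, 1 point per array. WGA arrays lie at 0.41 to 0.66 for cytosolic genes, above all starvation and control arrays, and within the range of the control arrays for mitochondrial genes.

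Partners of the synthetases were followed in lists chosen by function. Their counts stand beside backgrounds of 11.6% of all tested probe sets rising and 10.1% falling in WGA against control, and 8.12% rising and 7.09% falling in starvation against control. The lists held at most 8 tested genes, too few to tell whether a count differs from these shares. Nothing particular to a list is read from such counts. The cytosolic phenylalanine enzyme is built of separate chains encoded by alpha-PheRS and beta-PheRS, and neither passed in any comparison. In WGA against control alpha-PheRS differed by 0.13 ± 0.18 and beta-PheRS by 0.31 ± 0.28 (limma adjusted p = 0.667 and 0.484). Of the AIMP scaffold genes 1 of 3 rose. AIMP1 was at 5.70 ± 0.06 after WGA, 5.37 ± 0.36 after starvation and 4.47 ± 0.54 in control (mean ± SD, n = 3). It rose by 1.22 ± 0.28 in WGA against control (limma adjusted p = 0.00647) and by 0.89 ± 0.28 in starvation against control (limma adjusted p = 0.0492).

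Cytosolic elongation factors, which include the carrier of charged tRNA, were measured for 4 genes (eEF1alpha2, eEF1delta, eEF1gamma and eEF5). eEF1alpha1, eEF1beta and eEF2 had no probe set of their own. In WGA against control 1 rose and 0 fell, and in starvation against control 2 rose and 1 fell, where 15.2% of all tested probe sets were called in either direction. The 4 genes are too few to set these counts against that share. eEF1gamma, a subunit of the exchange factor that reloads the tRNA carrier, rose by 0.56 ± 0.14 after WGA and by 0.66 ± 0.14 after starvation (limma adjusted p = 0.0106 and 0.00556). eEF5 rose by 0.41 ± 0.12 and eEF1delta fell by 1.38 on the log2 scale in starvation against control (limma adjusted p = 0.0360 and 0.0135).

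Among mitochondrial charging and elongation factors 6 genes were tested. In each treatment against control 1 fell and 0 rose. This was mEFTu1, the carrier of charged tRNA in mitochondria, with -1.18 ± 0.32 after WGA and -1.24 ± 0.32 after starvation (limma adjusted p = 0.0160 and 0.0179). The comparisons share the control arrays. GatA, a subunit of the amidotransferase that makes glutaminyl-tRNA in mitochondria, differed by -0.80 ± 0.30 and -0.81 ± 0.30 without passing (limma adjusted p = 0.0795 and 0.0974).

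Of 6 tRNA maturation genes, 1 rose in each treatment against control. Archease, which in humans activates the tRNA ligase RtcB, was at 4.58 ± 0.04 after WGA, 3.76 ± 0.54 after starvation and 2.25 ± 0.84 in control, a rise of 2.33 ± 0.44 after WGA and 1.51 ± 0.44 after starvation (limma adjusted p = 0.00151 and 0.0320). Its control mean lay below the filter, so the size of the rise is uncertain. RtcB itself did not pass, with 0.44 ± 0.43 after WGA.

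Of 8 genes of the amino acid response and of serine and one-carbon synthesis, 1 rose and 1 fell in WGA against control, and 2 fell in starvation against control. PEK, a kinase that phosphorylates eIF2alpha in stress of the endoplasmic reticulum, was at 6.52 ± 0.17 after WGA, 5.18 ± 0.32 after starvation and 5.02 ± 0.45 in control. It rose by 1.5 ± 0.25 in WGA against control and by 1.34 ± 0.25 in WGA against starvation (limma adjusted p = 0.000717 and 0.00310). crc, the ATF4 gene, was at 10.12 ± 0.12 after WGA, 10.00 ± 0.20 after starvation and 9.89 ± 0.08 in control and did not pass (limma adjusted p = 0.266 in WGA against control). Gcn2, the kinase that senses uncharged tRNA, did not pass, with 0.81 ± 0.46 in WGA against control (limma adjusted p = 0.241). Its means after starvation and in control, 2.73 and 2.23, lay below the filter. aay, the phosphoserine phosphatase that ends serine synthesis, fell in both treatments, with -2.44 ± 0.27 after WGA and -2.6 ± 0.27 after starvation (limma adjusted p = 2.16e-05 and 2.86e-05). Nmdmc, an enzyme of mitochondrial folate metabolism, was the other fall after starvation, with -1.89 ± 0.57 (limma adjusted p = 0.0399). Its starvation mean of 2.37 lay below the filter, so the size of the fall is uncertain.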

How the data were processed

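Per the labels, total RNA from pools of midguts was biotin-labelled and hybridised to 1 array per pool. The deposited table holds 1 linear signal intensity per probe set from the Affymetrix software GCOS, named in the submitters' processing notes; its algorithm and scaling are not stated in the labels. The 44 control probe sets were left out, an offset of 1.72 (the 20th percentile) was added, and log2 values were quantile normalised, since 2% trimmed array means differed 1.90-fold. Tests were limited to the 9675 of 13966 probe sets above the 40th percentile (log2 2.79) on 3 or more arrays. Annotation gave 1 gene for 12442 probe sets, of which 12393 matched the RefSeq table, several genes for 327 and none for 1197.

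limma 3.58.1 (R 4.3.3, trended eBayes) estimated the 3 group means from all 9 arrays, with Benjamini-Hochberg adjustment over 9675 probe sets and a threshold of 0.05. Pairs were compared by exact permutation over arrays, adjusted over the pairs. Every member is accounted for; values on every array were printed for the 5 largest called changes per comparison and for others singled out after their values were seen (AlaRS, GlyRS, SerRS, HisRS, AspRS-m, SerRS-m, TrpRS-m, GluRS-m, TyrRS). From each of 6 function lists at most 3 called genes per comparison were named, and uncalled ones (GatA, RtcB, crc, Gcn2, the PheRS chains) were chosen after their values were seen. The 9 marker lists describe other cell types. Members and lists were chosen with earlier results of these data known. Classes and complex membership come from general knowledge. No genome build is named for the array, so no coordinates are given.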

Additional observations from a re-analysis of the deposited data

How the results depend on the processing

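In WGA against control the 8 cytosolic rises became 14 as deposited and 14 with spike-in scaling, where all tested probe sets shifted by 0.48 and 0.53. Of all tested probe sets, 21.7% and 22.6% rose there. The cytosolic rises ranged from 5 to 11 when each array was left out in turn, where 7.9% to 12.3% of all tested probe sets rose. Mitochondrial calls there were 1 rise (SerRS-m) with spike-in scaling, 1 fall (PheRS-m) with array weights, and 0 to 1 falls with an array left out. PheRS-m turned in WGA against control, to 0.06 as deposited and 0.12 under spike-in scaling, without a call. In starvation against control the 0 cytosolic rises became 3 with spike-in scaling, where 16.5% of all tested probe sets rose. The cytosolic rises were 1 with the replicate block, where 9.47% of all tested probe sets rose. They were 0 to 1 when an array was left out, where 5.4% to 8.59% of all tested probe sets rose. The mitochondrial fall was lost (0) as deposited and under spike-in scaling, and 0 to 2 fell with an array left out. In WGA against starvation the 6 cytosolic rises became 12 with the deposited scaling, where 10.3% of all tested probe sets rose. They ranged from 3 to 9 with an array left out, where 3.88% to 6.58% of all tested probe sets rose. Mitochondrial rises were 1 with no filter (GluRS-m, whose starvation arrays all lay below the filter level) and 0 to 1 with an array left out. The causes were not tested. No cytosolic gene fell in any comparison under any of the 21 alternatives run, and AsnRS, GluProRS, IleRS and ThrRS rose in WGA against control under all of them.

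Whether arrays of the same replicate number share a batch was not tested. Residuals correlated at -0.038 to 0.096 for same-numbered arrays and -0.130 to 0.059 for others, and 6 of 9 arrays correlated best with their own number. With a block for the number, 2256 of all tested probe sets were called in WGA against control, where 2100 were called without it. With the replicate block the cytosolic rises were 9 in WGA against control, with GlnRS added (limma adjusted p = 0.0413), where 12.5% of all tested probe sets rose. GluProRS rose in starvation against control (limma adjusted p = 0.0338), where 9.47% of all tested probe sets did. In WGA against starvation 8 cytosolic genes rose, where 6.75% of all tested probe sets did. There AlaRS, GlyRS and SerRS gained a call (limma adjusted p = 0.0415, 0.0242 and 0.00813) and ValRS lost its call (limma adjusted p = 0.0534). Arrays per group limit precision, and most mitochondrial probe sets lay near the filter.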
